A study of Mus musculus with 3 samples.

Results

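Transcripts of cytoplasmic actin, of the proteins that hold or cut it, and of the Baiap2 family that shapes membrane were described in ureteric duct cells of the mouse embryo. The set holds 10 genes of 19938 on the array: the actins Actb and Actg1, the thymosins Tmsb10 and Tmsb4x, the profilin Pfn1, the cofilin Cfl1, the Baiap2 family members Baiap2, Baiap2l1 and Baiap2l2, and ezrin, Ezr. They were picked by name after signals of these same arrays had been seen, some for how high they read, so their levels are given as a description with no test. All 3 samples form a single group, numbered 1 to 3. They are cells of the ureteric trunk from CD-1 embryos at 10.5 days post coitum (Theiler stage 18) that carried the transgene Tg(Hoxb7-EGFP)33Cos. Its green fluorescent protein is driven by the Hoxb7 promoter and marks the nephric duct and its branches. The duct was dissected and its cells were freed with trypsin and sorted by fluorescence, and RNA was amplified in 1 round. The sex was unknown, 1 duct went into each sample, and no control group was part of the design. The labels do not say whether different embryos were used, so the spread between arrays may be technical.

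Actin exists as single subunits and as filaments, and cells shape their surface by shifting the balance between these. Beta-thymosins hold single subunits in reserve, profilin hands them to growing filament ends, and cofilin cuts old filaments so that subunits return. Proteins of the Baiap2 family carry an I-BAR domain, which binds membrane. The protein of Baiap2 itself bends the plasma membrane outward and links it to the small GTPases Rac and Cdc42. Ezrin ties filaments to the membrane and is known from the apical surface of epithelia, the duct among them.

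Of the 10 genes, 9 had a probe set annotated to that gene alone, 12 such probe sets in all. Actg1 had none of its own: the 4 probe sets that name it also name Actb. The values are log2 signals from the authors' table. Probe sets bind with different strength, so their signals do not rank the genes. As a measure of background, 1210 probe sets of odorant and pheromone receptors were taken, genes known from sensory neurons. Their 95th percentile is the cutoff of an array and came to 5.70, 5.73 and 5.71 on arrays 1, 2 and 3. Of the 9 genes, 8 lay above it on all 3 arrays, where 57.7% of all 19938 genes did, and nothing is read from that count because the signals helped choose the genes.

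All 19 duct markers were above background in limma's one-sided test, where 56.1% of all genes passed. The limit was a Benjamini-Hochberg adjusted p under 0.05 over all 21789 single-gene probe sets. Of the 19, 9 held the same value on all arrays, so their p is too small. Sox8 at 6.04 and Wnt7b at 5.81 lay below the receptors' 99th percentile, a mean of 6.38. All 13 endothelial markers passed as well, against 1 of 13 for leukocytes, 1 of 8 for red cells and 5 of 15 for mesenchyme and stroma. Array 1 stood apart in embryonic globins: Hbb-y read 10.02 there against 5.31 and 5.45, and the red cell list averaged 6.37, 5.17 and 5.17 on arrays 1, 2 and 3. Of all probe sets, 14102 of 35557 held the same value on all arrays, called tied here, so an SD of 0 or a very small one understates the error.

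Promoter sequences are shown for 5 of the genes: Actg1, Pfn1, Cfl1 and Tmsb4x, because every probe set that names them was lowest on array 2, and Ezr, which was not. Tmsb10, lowest there as well, has several starts in the promoter table and is not shown. RefSeq promoters on the GRCm38.p6 build, 250 bases before to 50 after the start, were found for 8 of the 10 genes, all but Actb and Baiap2l2. The 100 bases before the start are printed 5′ to 3′ along the gene. Capitals mark the CArG box, the element known to bind the actin-responsive factor Srf, and the GC box GGGCGG, both searched on either strand.
Actg1, chr11:120348496-120348595, minus strand: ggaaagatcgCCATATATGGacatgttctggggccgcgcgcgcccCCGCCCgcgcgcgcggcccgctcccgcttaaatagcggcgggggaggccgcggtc
Pfn1, chr11:70654651-70654750, minus strand: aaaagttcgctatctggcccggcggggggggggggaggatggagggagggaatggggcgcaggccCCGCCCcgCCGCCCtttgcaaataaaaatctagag
Cfl1, chr19:5490355-5490454, plus strand: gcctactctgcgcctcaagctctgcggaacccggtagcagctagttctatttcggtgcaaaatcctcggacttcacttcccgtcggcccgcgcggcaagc
Tmsb4x, chrX:167209219-167209318, minus strand: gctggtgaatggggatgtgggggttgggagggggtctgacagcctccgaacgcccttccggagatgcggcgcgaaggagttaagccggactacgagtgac
Ezr, chr17:6782781-6782880, minus strand: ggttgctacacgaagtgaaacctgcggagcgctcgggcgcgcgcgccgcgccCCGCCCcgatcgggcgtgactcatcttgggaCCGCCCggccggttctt

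A CArG box was found in the Actg1 promoter, starting at position -90, and in no window of 300 bases of the other 7 genes. This was 1 of 10 promoters, since some genes have several starts. It occurs in 1.63% of 32851 promoters of this length. On the Srf list, a set of Srf, its cofactors and its known targets, 6 of 18 promoters held a CArG box. They belonged to 5 of 13 genes: Fhl1, Fhl2, Myl9, Srf and Vcl. A GC box lay in all 10 promoters of the 8 genes, against 35.7% of all promoters. In Pfn1 a pair began at -35 and -27, in Ezr at -48 and -17, and in Cfl1 past the start, at 10 and 15. Baiap2 alone among the 8 held the letters TATAAA, at -33, found on either strand in 13.6% of promoters. A match of letters is a description and not evidence of binding.

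Actb encodes the beta form of cytoplasmic actin. Its probe set read 12.95 on array 1, 12.20 on array 2 and 13.03 on array 3, a mean of 12.73 ± 0.46 (SD, n = 3). Arrays 1 and 3 lay within 0.08 log2 units of each other, and array 2 stood 0.84 units below the higher of them. Without array 2 the mean was 12.99. No other untied gene of the set had a larger SD, and 91.3% of the 9809 untied genes on the array had a smaller one.

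Actg1 encodes the gamma form, a nearly identical protein. The 4 probe sets that name both actins had means of 11.83 ± 0.37, 11.69 ± 0.34, 11.62 ± 0.43 and 10.95 ± 0.36 (SD, n = 3 each). On array 1 they read 11.97, 11.82, 11.76 and 11.10. Array 2 gave 11.41, 11.30, 11.14 and 10.54, and array 3 gave 12.11, 11.95, 11.97 and 11.22. All 4 were lowest on array 2 and highest on array 3, the order seen for Actb. Signals of the actin genes cannot be told apart in these probe sets, so no level of Actg1 is given.

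Tmsb10 encodes a beta-thymosin, a short protein that sequesters actin subunits. Both its probe sets list the same 3 coding RefSeq records and read almost the same: 13.48, 13.35 and 13.41 on arrays 1, 2 and 3 for one, and 13.47, 13.35 and 13.40 for the other. Their means were 13.41 ± 0.06 each (SD, n = 3). The paralogue Tmsb4x, the beta-thymosin of most cell types, read 11.92, 11.74 and 12.18, with a mean of 11.95 ± 0.23. Tmsb10 spanned 0.12 log2 units over the arrays and Tmsb4x 0.45. Both were lowest on array 2.

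Pfn1 encodes the main profilin of non-muscle cells. It read 11.49 on array 1, 10.91 on array 2 and 11.49 on array 3, with a mean of 11.30 ± 0.33 (SD, n = 3). The values of arrays 1 and 3 were identical to the last deposited digit, so this SD may understate the error. Cfl1, the non-muscle cofilin, read 10.79, 10.14 and 10.92, with a mean of 10.62 ± 0.42. In both, array 2 lay apart below the others.

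**Figure D1:**
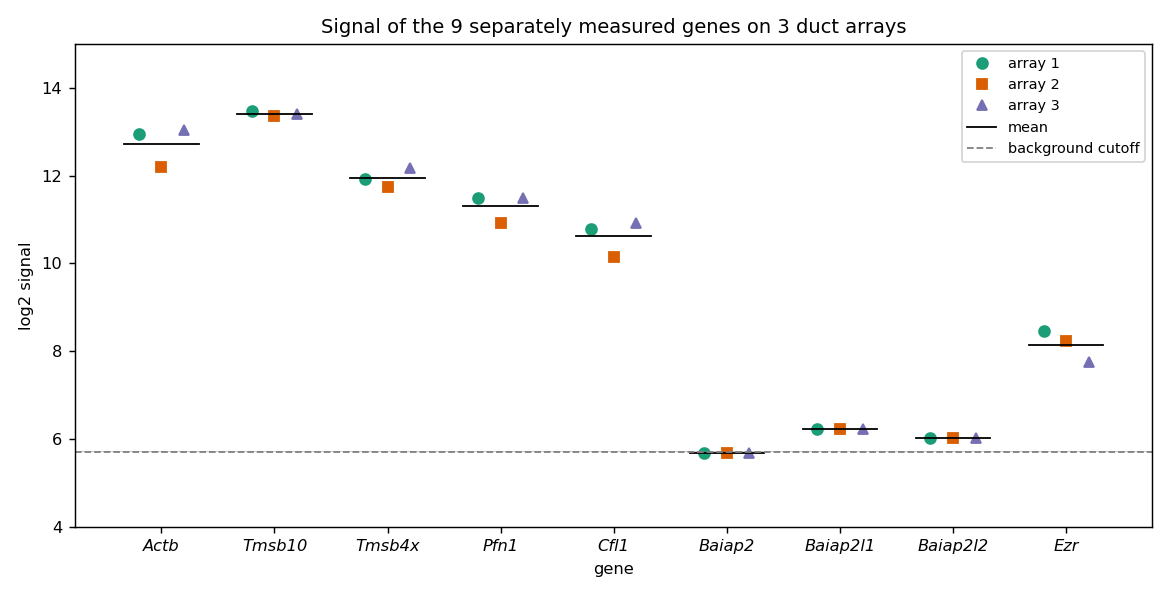
Log2 signal (y axis) of the 9 genes with a probe set of their own (x axis), with 1 point per array, a bar for the mean and a dashed line with a narrow band for the background cutoffs of 5.70 to 5.73. Actb, Pfn1 and Cfl1 show array 2 below the other arrays, Ezr shows array 3 lowest, and the Baiap2 family lies within 0.51 log2 units of the mean cutoff; Baiap2l1 is drawn from the probe set that lists its coding record.

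The Baiap2 family read near background wherever a probe set listed a coding record of the gene. Baiap2, which encodes IRSp53, a scaffold of filopodia and lamellipodia, read 5.68 on each array, below the cutoff on all 3, by 0.02 to 0.06 log2 units. Baiap2l2, whose protein is known from epithelial junctions and the stereocilia of hair cells, read 6.01 on each array, 0.30 units above the mean cutoff. Exactly this value on all arrays was held by 25 other probe sets. Whether it is specific to the gene was not tested. With the cutoff at the receptors' 99th percentile, a mean of 6.38, Baiap2l2 lay below it.

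Baiap2l1 encodes IRTKS, an I-BAR protein of microvilli and actin pedestals, and its 3 probe sets disagreed. One read 13.46, 13.21 and 13.69 on arrays 1, 2 and 3, a mean of 13.45 ± 0.24 (SD, n = 3). The next read 11.53, 11.53 and 11.66, a mean of 11.57 ± 0.08. The last read 6.22 on every array, 0.51 log2 units above the mean cutoff and below the 99th percentile. The high readings thus lay 7.23 and 5.35 log2 units above the last.

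The annotation separates these probe sets by the RefSeq records they list. Only the probe set at 6.22 lists a coding RefSeq record of Baiap2l1. Both others list 2 non-coding RefSeq records and 0 coding ones. Outside RefSeq, all of these probe sets, the one at 6.22 included, list a sequence record in common. These non-coding records are known as the small-subunit ribosomal RNA and the ribosomal RNA precursor, and no further single-gene probe set lists either. The precursor record is also listed by the probe set annotated to Cdk8 and Rn28s1, the large-subunit ribosomal RNA, which read 14.10, 13.81 and 14.09 on arrays 1, 2 and 3. What the high probe sets hybridised with was not tested, and no level of Baiap2l1 mRNA is taken from them. No high reading for Baiap2l1 came from a probe set with a coding RefSeq record.

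**Figure D2:**
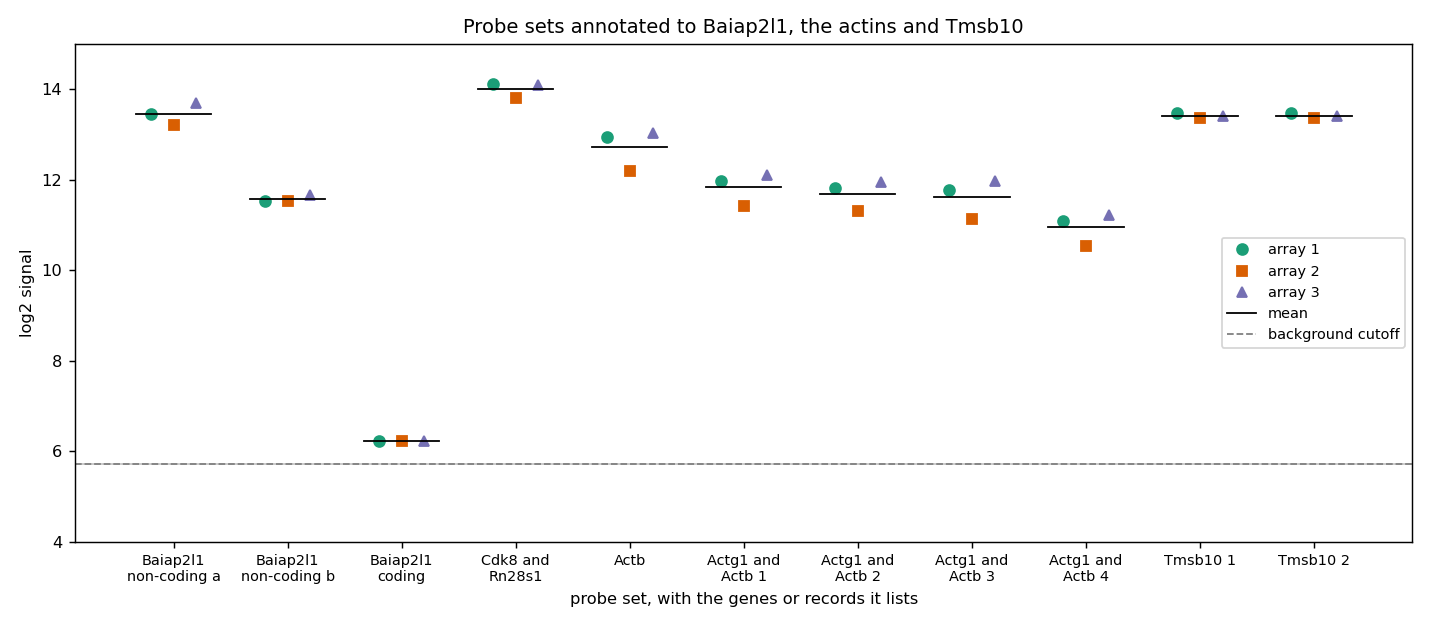
Log2 signal (y axis) on each array, with the mean as a bar, for the probe sets annotated to Baiap2l1, to Cdk8 and Rn28s1, to the actins and to Tmsb10 (x axis). The Baiap2l1 probe sets that list non-coding records average 13.45 and 11.57, and the one that lists a coding record reads 6.22; the 4 probe sets shared by the actins repeat the array order of Actb.

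Ezr read 8.46 on array 1, 8.24 on array 2 and 7.75 on array 3, with a mean of 8.15 ± 0.37 (SD, n = 3), 2.44 log2 units above the mean cutoff. Here array 3 was low and array 2 was not. The gap between arrays 3 and 1 was 0.71 log2 units, about as wide as the gap that set array 2 apart for Cfl1.

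Of the 6 untied genes, 5 were lowest on array 2: Actb, Tmsb10, Tmsb4x, Pfn1 and Cfl1. Among all untied genes 21.1% were lowest on that array alone, and 27.7% of the 535 with a mean of at least 10, a limit chosen after seeing the data. These shares also count genes whose 2 lowest values were equal, so they are lower than among genes with a single lowest array. All 6 genes here had a single lowest array. Of all untied genes, 1928 were lowest on array 1 alone, 2069 on array 2 and 2712 on array 3. Of the 535, these counts were 121, 148 and 184. Array 2 minus the mean of the other arrays was -0.80 log2 units for Actb, a signal 0.576 times theirs. It was -0.72 for Cfl1, -0.58 for Pfn1, -0.32 for Tmsb4x, -0.09 for Tmsb10 and 0.14 for Ezr. Of all untied genes 1.75% had a lower difference than Actb, 2.39% than Cfl1 and 3.50% than Pfn1, while 27.9% had one lower than Tmsb10. Array 2 is a single sample, so no test of this difference exists. These directions were the same after quantile normalization and after centring each array on its median.

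Endothelial markers moved on the same array, and the part of this and the following lists in the actin values was not tested. All 13 endothelial markers were lowest on array 2, with a list mean of 7.95, 7.25 and 7.98 on arrays 1, 2 and 3. None of them was at background: all 13 passed the test, led by Emcn at 10.40, 9.28 and 10.53. Their summed log2 signal ranged from 94.3 to 103.7 over the arrays. Genes that respond to tissue dissociation averaged 7.35, 7.07 and 7.14, with 6 of 10 untied members lowest on array 2. Their averages on arrays 2 and 3 lay close together, and array 1 was the one apart. Duct markers averaged 7.80, 7.76 and 7.78, with 4 of 10 lowest there. In a bulk sample, fewer cells of a type and less RNA per cell cannot be told apart.

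The Srf list was set beside these genes because Actb, Actg1 and Cfl1 are known Srf targets. Of its 15 genes 11 were above background, where 56.1% of all genes were. Of its 9 untied genes 7 were lowest on array 2, against 21.1% of all untied genes, a share lowered by genes whose 2 lowest values were equal. Among these 7, Cnn1 lay below the cutoff, and Tagln and Fhl1 differed by only -0.008 and -0.036 log2 units. The filamin gene Flna read 8.76, 8.68 and 8.89, the matricellular gene Ccn1 8.83, 7.62 and 7.89, and the vinculin gene Vcl 8.03 on each array. Srf itself read 6.52 on each array. The smooth muscle genes Cnn1 at 5.42 ± 0.16 and Myl9 at 5.22 ± 0.24 did not pass. The median difference of the untied Srf list genes on array 2 was -0.14 log2 units, against 0.0030 over all untied genes.

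**Figure D3:**
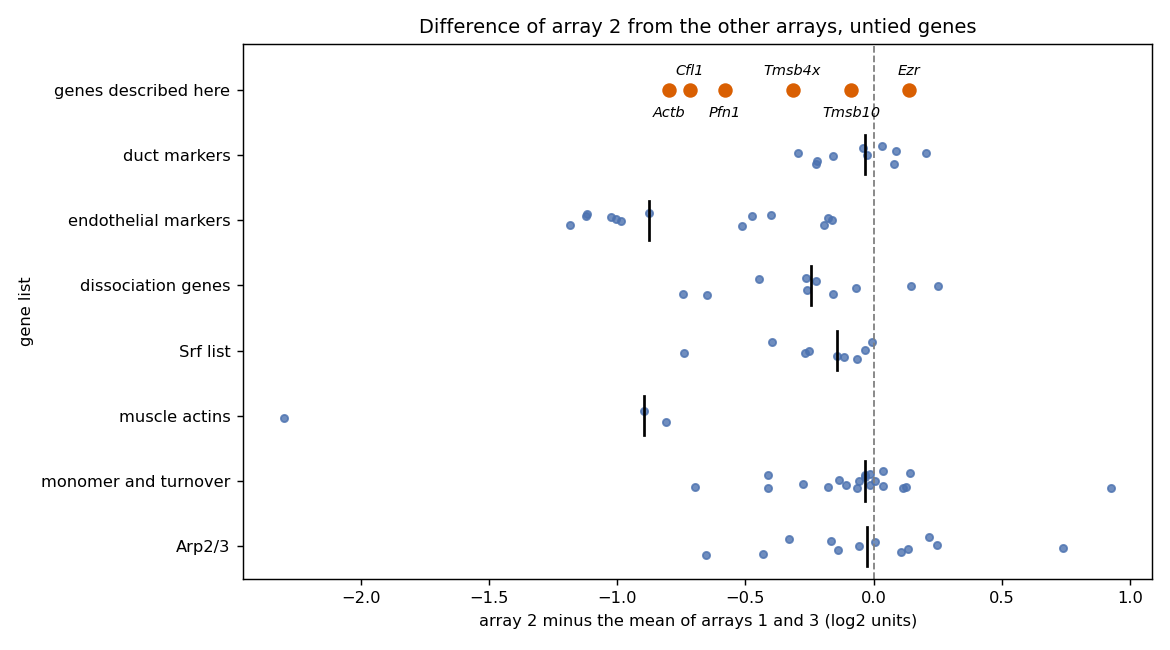
Array 2 minus the mean of arrays 1 and 3, in log2 units (x axis), for the 6 untied genes described here and for the untied genes of 7 lists (y axis), with 1 point per gene and a bar at each list's median. Actb, Cfl1 and Pfn1 lie between -0.80 and -0.58. The list medians are -0.89 for the muscle actins, -0.88 for the endothelial markers, -0.24 for the dissociation genes and -0.14 for the Srf list. They are -0.04 for monomer and turnover genes, -0.03 for the duct markers and -0.03 for the Arp2/3 list.

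Across the other genes of actin and membrane shaping, 121 of 149 measured (81.2%) were above background in limma's one-sided test, against 56.1% of all genes. The 149 include the Srf list and the muscle actins. The lists were chosen with earlier results of these data known, which limits this comparison. Their median signal was 7.09, and that of all genes 6.04. At the 99th percentile cutoff 84 passed, against 36.1% of all genes. By lists, the Arp2/3 complex and its activators passed in 17 of 19 cases, monomer binding and turnover genes in 22 of 25, and other BAR proteins in 16 of 17. Formins and related genes passed in 16 of 19, the ERM group in 11 of 13, and microvillus and bundling proteins in 12 of 18. At the 99th percentile cutoff 16, 14, 8, 10, 9 and 9 passed, in the same order. Tied genes, whose p is too small, made up 11 of the 17 other BAR genes and 13 of the 19 formins and related genes.

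Among genes for actin turnover, the capping protein gene Capza1 read 11.66 on each array, the cofilin paralogue Dstn 10.50 ± 0.05 and Gmfb 9.92 ± 0.07 (SD, n = 3). The leukocyte coronin gene Coro1a at 5.43 ± 0.07 and the thymosin gene Tmsb15a at 4.47 did not pass. Paralogues were named after their values were seen. The muscle cofilin gene Cfl2 read 8.91, 8.91 and 8.66 on arrays 1, 2 and 3, so array 2 was not its lowest. The neuronal profilin gene Pfn2 read 6.02, 7.09 and 6.32, highest on array 2, where Pfn1 was lowest; it passed narrowly (limma, Benjamini-Hochberg adjusted p = 0.045) and not at the 99th percentile cutoff (limma, adjusted p = 0.855).

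The branching complex was represented by Arpc2 at 11.44, Brk1 of the WAVE complex at 10.16 ± 0.12 and Actr3 at 9.46 ± 0.15. Its blood-cell activators Was at 5.72 and Nckap1l at 4.79, each tied, did not pass. Among formins and related genes, Cobll1 read 8.72 and Enah, an Ena/VASP protein, 8.36, both tied, and Evl 8.22 ± 0.12. Daam2 at 5.39 ± 0.08 and Fmn2 at 4.96 did not pass.

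Of the other BAR proteins, which bend membrane inward or outward, the F-BAR gene Fnbp1l read 10.91 ± 0.03, Fcho2 8.0 and Srgap2 7.61, the latter both tied. Mtss1, an I-BAR gene outside the Baiap2 family, read 7.31, 6.95 and 7.37 on arrays 1, 2 and 3. Fcho1 passed at 5.84, and Pstpip2 at 4.47 did not.

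Of the GTPases that IRSp53 binds, Cdc42 read 11.65 ± 0.15 and Rac1 10.54 ± 0.04. Eps8, the actin-capping partner of IRSp53, read 5.72 on each array and did not pass. Of its relatives, Eps8l2 at 6.56 ± 0.20 and Eps8l3 at 5.98 passed, and Eps8l1 at 5.37 did not. Eps8l3 was tied and lay below the 99th percentile cutoff, a mean of 6.38. Lin7a at 5.09 and the synaptic scaffold gene Shank1 at 5.02 did not pass either. Their paralogues, named after their values were seen, did: Lin7c at 9.98 ± 0.08, Lin7b at 7.0, Shank2 at 7.21 and Shank3 at 6.05. Lin7b and Shank3 were tied, and Shank3 also lay below the 99th percentile cutoff.

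Ezrin's relatives read 9.80 ± 0.08 for radixin, Rdx, and 8.04 for moesin, Msn, which was tied. Merlin, Nf2, read 7.09 and the ezrin-binding scaffold gene Slc9a3r1 7.30 ± 0.08. The kinase gene Rock1 at 9.59 ± 0.06 and the myosin phosphatase gene Ppp1r12a at 9.64 passed. Stk10, a kinase of ERM proteins, at 5.65 ± 0.46 and the hyaluronan receptor gene Cd44 at 4.85 did not. Rdx read 9.75, 9.75 and 9.89 on arrays 1, 2 and 3, highest where Ezr was lowest. Rock1 at 9.63, 9.63 and 9.52 and the podoplanin gene Pdpn at 8.59, 8.36 and 7.42, the latter named after its values were seen, were lowest on array 3 as Ezr was. They were 2 of the list's 6 untied genes, and 2712 of all 9809 untied genes were lowest on array 3 alone.

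Villin, Vil1, which bundles filaments in microvilli, at 4.95 and the microvillar myosin gene Myo1a at 4.97 did not pass. Neither did the remaining 4 genes of the list that failed the test, Ush1c, Myo7b, Cdhr5 and Cdhr2 of the brush border, named after their values were seen. The list's highest signals came from the tropomyosins Tpm3 at 11.65 ± 0.15, Tpm4 at 11.12 and Tpm1 at 9.87. Its other passing genes were also named after their values were seen. Actn4 at 8.98, Fscn1 at 8.24, Pls3 at 8.13, Lcp1, Actn1 and Espn at 6.65 passed. All of these lay above the 99th percentile cutoff, a mean of 6.38. Myo7a, Pls1 at 5.97 and Fscn2 passed as well but lay below that cutoff. Espn and Myo7a were tied. The actins of muscle differed widely between arrays. Actc1, the cardiac form, read 7.67, 6.36 and 9.65 on arrays 1, 2 and 3 and did not pass (limma, Benjamini-Hochberg adjusted p = 0.055). With array 2 left out it did (limma, Benjamini-Hochberg adjusted p = 0.047), and it did under some of the other alternatives. Acta1 of skeletal muscle read 6.62, 6.12 and 7.40 and passed (limma, Benjamini-Hochberg adjusted p = 0.038), a call that ended at the 99th percentile cutoff (limma, adjusted p = 0.295). Acta2 of smooth muscle read 5.75, 5.35 and 6.58 and Actg2 5.29 on each array, and neither passed. The 3 untied muscle actins shared the array order of Actb, lowest on array 2 and highest on array 3. Of 9 muscle markers 3 passed, Tnnt2, Myod1 and Tagln, where 56.1% of all genes did. Tnnt2 lay 2.24 log2 units above the mean cutoff, Myod1 0.23 and Tagln 0.19. Myod1, which was tied, and Tagln lay below the 99th percentile cutoff. The muscle marker list averaged 6.17, 5.82 and 6.58 on arrays 1, 2 and 3. It includes Actc1 and Acta2, and without them it averaged 6.02, 5.81 and 6.14. The part of such cells in the actin signals was not tested.

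**Figure D4:**
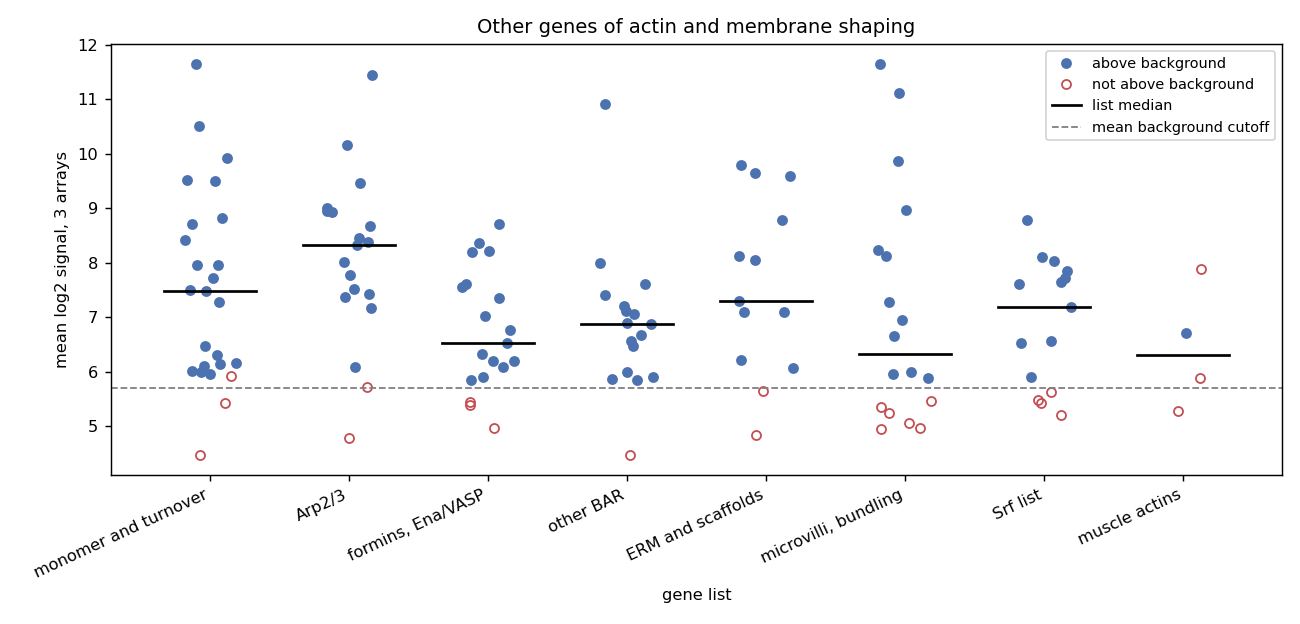
Mean log2 signal over 3 arrays (y axis) of each measured gene of 8 lists (x axis), filled where limma called it above background and open where not, with a bar at the list median and a dashed line at the mean cutoff of 5.71. The Arp2/3 list has a median of 8.33, and the low genes of the microvillus list include villin at 4.95.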

How the data were processed

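The data were 3 Affymetrix arrays, 1 per sample, of amplified and biotin-labelled RNA. The authors deposited log2 values for 35557 probe sets, read as log2 from their range. The submitters' processing notes name Affymetrix Expression Console. Its algorithm, its correction of background and any filter were not given in the sources used here. The platform annotation gave 21789 probe sets a single gene, 1621 several and 12147 none. For each gene the probe set of highest mean was used, except that Baiap2l1 is described from all 3. The distance of each value from its array's cutoff was tested in limma 3.58.1 under R 4.3.3, with an intercept model, moderated variances, a one-sided p and Benjamini-Hochberg adjustment over all single-gene probe sets; genes tied on all arrays get too small a p. The fit was tested on simulated data with no ties and a single spread for all probe sets, so that test does not bear on tied genes. Named genes were all 10 members, the 3 highest and 2 lowest of each list, all muscle actins, and Cdc42, Rac1, the Eps8 family, Rdx, Msn, Nf2, Slc9a3r1, Mtss1 and Srf. The members and lists were chosen with earlier results of these data known. The count of one list, and one gene that the rule takes from it, are not reported here. The number of arrays limits the precision. Alternatives were other cutoffs, background sets, scalings, probe set rules, a spread for tied probe sets, a filter on low values, and leaving out each array.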

Additional observations from a re-analysis of the deposited data

How the results depend on the processing

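The count of 121 listed genes of actin and membrane shaping above background was 73 after a rise of the cutoff by 1 log2 unit. It was 84 to 129 under the other cutoffs, background sets, scalings, probe set rules, filter and spread tried. Leaving out an array gave 111 to 121, the lowest without array 3, where limma gave all genes one spread. Among the genes described, 8 of 9 had means above the cutoff, and between 7 and 9 did under the alternatives, or 6 to 9 with Baiap2l1 from its coding-record probe set. Baiap2l2 fell below the cutoff, to -0.37 with the receptors' 99th percentile and -0.70 with the cutoff raised by 1 unit, and Baiap2 moved above it, to 0.28, at the 90th. In these probe sets the Baiap2 family had the same value on all arrays, so the cutoff alone decides their side. Taking Baiap2l1 from the probe set that lists its coding record, an alternative chosen after seeing the data, moved it from 7.74 to 0.51 log2 units above the cutoff. From there it lay at -0.16 with the receptors' 99th percentile and at -0.49 with the cutoff 1 unit higher. The muscle actin count of 1 became 0 at the 99th percentile, with the cutoff 1 unit higher and with odorant receptors as the sole background. That background also ended the call of Pfn2 (limma, adjusted p = 0.066). The count became 2, with Actc1 called, at the 90th percentile and without array 2 or array 3. It was also 2 with a spread for tied probe sets and with the filter on low values. No paired analysis was possible because there is a single group. Signal over background limits the Baiap2 family, and the scanner files were not used here.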

Other observations

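Genes whose values over the 3 arrays lay closest to those of Actb, after each gene was centred on its mean, were Elp5, Gm4750, Rplp1, Trappc2l and Tmem88. Rplp1, a ribosomal stalk protein gene, read 12.67, 11.91 and 12.76 on arrays 1, 2 and 3. Elp5, a subunit of the Elongator complex, read 8.50, 7.75 and 8.59. Of 6638 untied genes above background, leaving out the 10 actin, thymosin, Baiap2 and related genes, 20 lay within 0.1 log2 units of the Actb profile by Euclidean distance. Cfl1 lay at 0.074, Pfn1 at 0.186, Tmsb4x at 0.413, Tmsb10 at 0.589 and Ezr at 0.947. With 3 arrays such closeness is a description only.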
